A study of Mus musculus with 6 samples.

Results

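The genes described here are 10 tubulin genes of mouse cardiomyocytes (CMs): Tuba1a, Tuba1b, Tuba1c, Tuba4a and Tuba8 of the alpha family and Tubb5, Tubb4b, Tubb2a, Tubb2b and Tubb6 of the beta family. They were found by symbol, and all 10 of 10 were present among the 27998 genes of the count tables. Left ventricular cells of C57BL/6J mice were fixed in methanol, stained for the CM marker MYH1 and for DNA with Hoechst, sorted by DNA content into diploid (2n) and tetraploid (4n) CMs at 3 ages (E16.5, P1, P5) and subjected to droplet-based scRNA-seq. Each of the 6 conditions, called here by age and ploidy (E16.5-2n and so on), was 1 library, made from cells of 3 sorts that had been pooled, so conditions have no replicates, no test between them was made and no p-values are given. The labels name no mutation and no treatment, and the age label of E16.5-4n reads day 16.6 although its title reads E16.5. A tetraploid gate holds cells in G2 and M, tetraploid cells at rest, binucleated cells and any pairs of 2n cells stuck together. Sorting by DNA content alone does not part them. The paper reports that clumps were scarce where sorted cells were checked under the microscope, in a passage that describes P5 CMs. The tetraploid CMs of that passage were partly mononucleated and partly binucleated.

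Microtubules are hollow polymers of dimers of one alpha and one beta tubulin. They form the spindle that pulls chromosomes apart in mitosis, and in CMs at rest they form a network between the myofibrils that carries cargo and adds to the stiffness of the cell. Mammals carry several genes of each family, which differ mostly in the acidic tail of the protein and in the tissues and times at which they are used, and cells hold tubulin transcripts in check by degrading them when free dimers are abundant.

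Tuba1a, Tuba1b and Tuba1c lie together on chromosome 15 of GRCm38, within 107 kb (chr15:98931425-99038110). Tuba1a and Tuba1b are read from the minus strand and Tuba1c from the plus strand. Tubb2a and Tubb2b are neighbours on the minus strand of chromosome 13, within 56.2 kb (chr13:34074274-34130466). The other members lie apart: Tuba4a at chr1:75214228-75219865 (minus strand), Tuba8 at chr6:121210696-121226854 (plus strand), Tubb5 at chr17:35833921-35838306 (minus strand), Tubb4b at chr2:25222160-25224702 (minus strand) and Tubb6 on chromosome 18. Their Ensembl identifiers are ENSMUSG00000072235 (Tuba1a), ENSMUSG00000023004 (Tuba1b), ENSMUSG00000043091 (Tuba1c), ENSMUSG00000026202 (Tuba4a), ENSMUSG00000030137 (Tuba8), ENSMUSG00000001525 (Tubb5), ENSMUSG00000036752 (Tubb4b), ENSMUSG00000058672 (Tubb2a), ENSMUSG00000045136 (Tubb2b) and ENSMUSG00000001473 (Tubb6). All 10 are annotated as protein-coding genes, with 2 to 5 exons in their coding transcripts.

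Some members are so alike that reads cannot always be given to one of them. The coding sequences of Tuba1a and Tuba1b were 98.3% identical, those of Tuba1b and Tuba1c 97.9% and those of Tubb2a and Tubb2b 96.5%. The reads come from the 3′ ends of transcripts, so each 100-base window of the last 500 bases of the annotated coding transcripts was looked up in all annotated transcripts of other genes. For Tuba1a 50.9% of the windows occurred elsewhere, for Tuba1b 57.4% and for Tuba1c 64.1%, in each other's transcripts or in those of processed pseudogenes. Tubb2a shared 21.2% of its windows with Tubb2b, and Tubb4b shared 7.98%, with pseudogenes. For Tuba4a, Tuba8, Tubb5, Tubb2b and Tubb6 no window was shared. By the paper's methods the reads were longer than 100 bases, so a read that holds a shared window can still differ outside it. The percentages are thus not shares of ambiguous reads. Cell Ranger keeps only reads that map to 1 gene, so the levels of the 3 Tuba1 genes, and their shares against each other and against the other members, are uncertain in a way that the counting intervals do not cover. The same holds for Tubb2a and Tubb4b, with fewer of their windows shared. The windows were sought in GENCODE transcripts, while the authors counted reads with another annotation, which may lack some of these pseudogenes. How many reads shared only with pseudogenes are lost is therefore not known.

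Promoter sequences were available from RefSeq (GRCm38.p6) for 8 of the 10 genes, all but Tubb2b and Tubb6. Tubb6, whose transcripts were more abundant in 4n than in 2n CMs at each age, is thus missing from what follows on motifs. In the 250 bases before the start, matches on both strands were sought for CCAAT, which reads ATTGG on the other strand and is the box bound by the factor NF-Y. They were likewise sought for TTTGAA, which reads TTCAAA on the other strand and is the core of the cell cycle homology region (CHR) known from promoters of G2/M genes. The windows of Tuba1c, Tubb4b and Tubb5, whose transcripts were more abundant in 4n than in 2n CMs at each age, are shown against those of Tubb2a and Tuba8, for which this did not hold. The window of Tuba1b, whose transcripts were also more abundant in 4n at each age, lies mostly inside the annotated gene and is not shown. Those of Tuba1a and Tuba4a, also not shown, lie mostly and wholly inside their annotated genes. Sequences are given with the matches in capitals and only bases outside the annotated gene:
Tubb4b, minus strand, chr2:25224703-25224952: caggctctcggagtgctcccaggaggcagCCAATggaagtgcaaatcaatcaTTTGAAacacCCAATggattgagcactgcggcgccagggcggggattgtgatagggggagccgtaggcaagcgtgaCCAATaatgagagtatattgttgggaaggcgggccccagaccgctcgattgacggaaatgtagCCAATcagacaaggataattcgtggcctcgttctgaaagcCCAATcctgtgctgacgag
Tubb5, minus strand, chr17:35838307-35838551: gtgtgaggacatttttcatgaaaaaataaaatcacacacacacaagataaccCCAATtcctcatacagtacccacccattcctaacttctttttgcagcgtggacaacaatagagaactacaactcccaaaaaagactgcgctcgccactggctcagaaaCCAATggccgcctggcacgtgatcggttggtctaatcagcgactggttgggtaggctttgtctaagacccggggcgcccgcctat
Tuba1c, plus strand, chr15:99029641-99029890: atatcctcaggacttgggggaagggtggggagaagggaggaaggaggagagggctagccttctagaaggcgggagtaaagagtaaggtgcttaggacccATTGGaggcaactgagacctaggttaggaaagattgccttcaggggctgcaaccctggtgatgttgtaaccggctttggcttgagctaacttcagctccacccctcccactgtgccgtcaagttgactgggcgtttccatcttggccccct
Tubb2a, minus strand, chr13:34078009-34078258: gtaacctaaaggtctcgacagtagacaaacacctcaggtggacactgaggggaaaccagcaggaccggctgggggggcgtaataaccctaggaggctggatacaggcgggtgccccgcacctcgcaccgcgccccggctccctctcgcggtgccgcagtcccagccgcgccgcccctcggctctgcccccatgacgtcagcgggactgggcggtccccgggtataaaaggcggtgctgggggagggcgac
Tuba8, plus strand, chr6:121210484-121210695: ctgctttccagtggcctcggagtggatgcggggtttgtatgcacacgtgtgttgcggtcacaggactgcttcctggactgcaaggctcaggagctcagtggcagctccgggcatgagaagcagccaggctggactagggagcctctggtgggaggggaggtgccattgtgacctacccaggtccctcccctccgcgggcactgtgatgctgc
The Tubb4b window held 5 matches of CCAAT and 1 of TTTGAA, which started 198 bases before the start of the gene, and no match of one motif overlapped one of the other. The Tubb5 window held 2 matches of CCAAT, and those of Tuba1c and Tuba1a held 1 each. The windows of Tuba1b, Tuba4a, Tuba8 and Tubb2a held neither motif, so that 1 of the 4 members with a window that were above 2n in 4n at each age, Tuba1b, had no match. Among the other members with a window only Tuba1a had a match, and it lies inside the annotated gene. Of all 32851 RefSeq promoter windows of the same length, 33.8% held CCAAT, 10.1% held it at least 2 times, 16% held TTTGAA and 5.55% held both. The windows with a match held 49.2% (Tubb5) to 56.8% (Tuba1a) GC, and those without a match 61.6% (Tuba4a) to 75.6% (Tuba1b). Over all promoter windows the median was 52.4%. The shares over all windows were not matched for GC, and the part of base composition in the matches was not tested. The matches are of letters and are not measured binding sites.

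The deposited tables held 3678 to 7469 cells per library with 13213992 to 19714177 unique molecular identifiers (UMIs), each of which marks 1 captured RNA molecule. Cells with at least 1 UMI each of Tnni3, Tnnt2, Tnnc1 and Actc1, the cardiac troponins and alpha actin, were kept as CMs. This left 30733 of 31156 cells, between 97.8% and 99.4% of a library, with a median of 1831 to 4658 UMIs per CM. Levels are given as CPM, that is, a gene's UMIs over all CMs of the library per 1000000 UMIs of the same CMs. A set of 10 other CM genes held 28410 to 34480 CPM in every library, whereas the 4 platelet and 6 neural and Schwann cell markers, whose cells use Tubb1 and Tubb3, summed to at most 14.4 and 5.64 CPM. Pairs of libraries shared 17 to 62 cell barcodes. In total 243204 UMIs belonged to the 10 tubulin genes, from 16632 in P1-2n to 68710 in E16.5-4n, or 2.27 to 14.1 per CM. Ranges in parentheses after a level, a share or a ratio are exact 95% intervals (Poisson, Clopper-Pearson and binomial split, respectively), and they cover counting error only, not the spread between animals or libraries. Since 3′ UMIs count molecules, levels of different genes are compared without a length term.

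Summed over the 10 genes, tubulin was most abundant before birth, lowest at P1 and intermediate at P5. At E16.5 the sum was 3102 CPM (3074 to 3131) in 2n against 5257 (5218 to 5296) in 4n. The P1 CMs held 1011 CPM (996.1 to 1027) against 1319 (1303 to 1335), and the P5 CMs 2193 (2171 to 2215) against 2568 (2545 to 2591). None of these intervals overlap, and 4n was above 2n at each age. Tubb5 and Tuba1b were the leading beta and alpha genes in every library. In E16.5-2n the order of levels was Tubb5, Tuba1b, Tuba1a, Tubb2b, Tubb4b, Tubb2a, Tuba4a, Tuba1c, Tubb6 and Tuba8, where the intervals of Tuba4a, Tuba1c and Tubb6 overlapped. In P5-2n it was Tuba1b, Tubb5, Tuba1a, Tuba4a, Tubb4b, Tubb2a, Tubb2b, Tuba1c, Tubb6 and Tuba8, where the intervals overlapped between Tuba1a and Tuba4a, between Tubb2a and Tubb2b, and between Tubb6 and Tuba8. Thus Tuba4a stood below Tubb4b, Tubb2a and Tubb2b in E16.5-2n and above them in P5-2n.

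**Figure D1:**
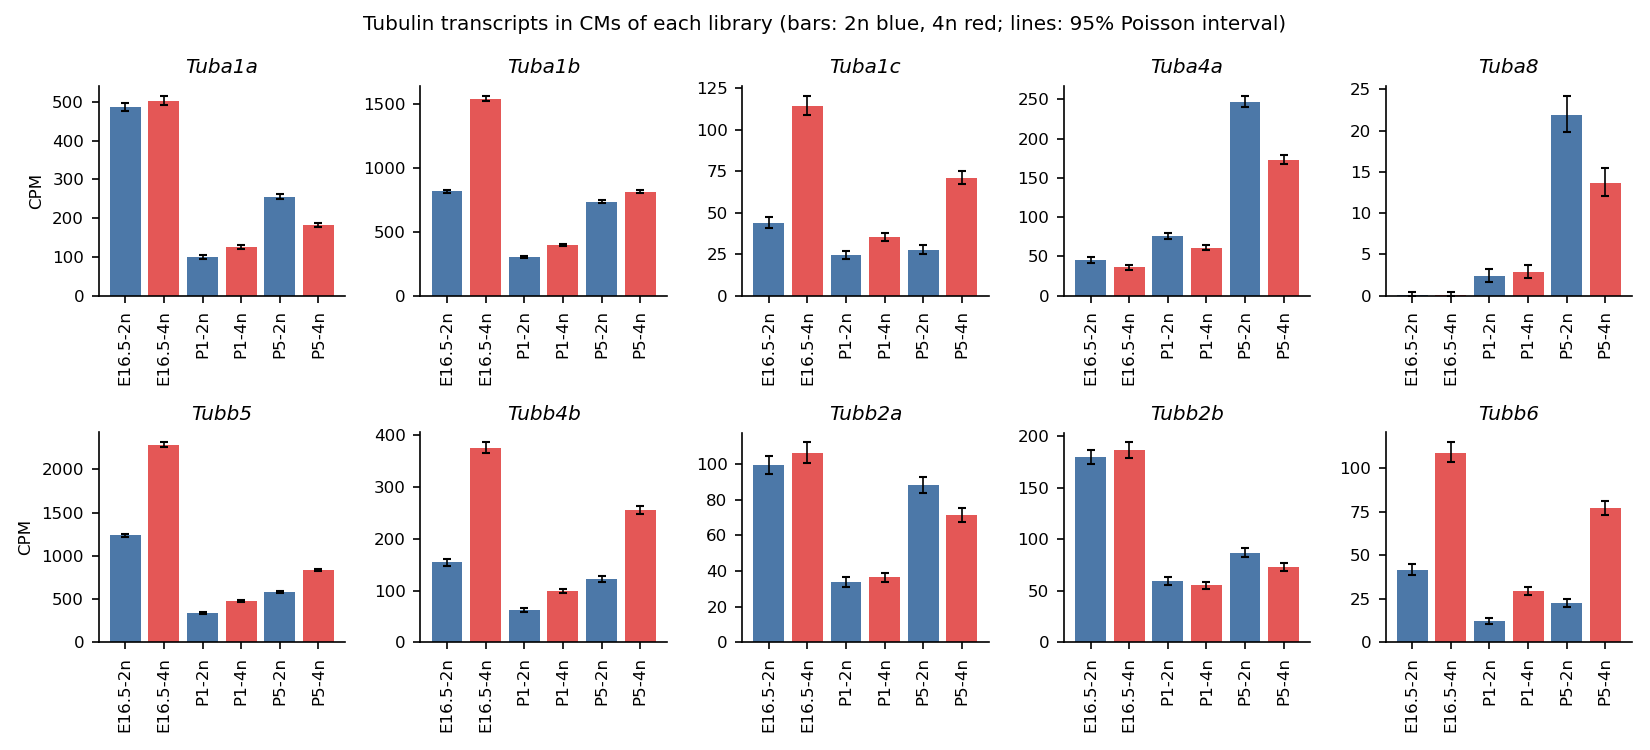
CPM (vertical axes, linear and starting at 0) of each of the 10 genes in the CMs of the 6 libraries; blue bars are 2n, red bars 4n and the lines are 95% Poisson intervals. Most genes are lowest at P1, whereas Tuba4a and Tuba8 are highest at P5, at 247 and 21.9 CPM in P5-2n.

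Among the alpha genes, Tuba1b, a form found in most dividing cells, was at 816 CPM in 2n against 1542 in 4n at E16.5, 306 against 398 at P1 and 735 against 816 at P5. E16.5-4n stood above every other library, and P5-4n lay back at the level of E16.5-2n, with overlapping intervals. Tuba1a, best known from neurons, was at 487 CPM in 2n against 503 in 4n at E16.5, 99.8 against 126 at P1 and 255 against 182 at P5. Thus it hardly differed between 2n and 4n at E16.5, and at P5 it was lower in 4n. Tuba1c was at 43.9 CPM in 2n against 114 in 4n at E16.5, 24.6 against 35.3 at P1 and 27.7 against 71.2 at P5, so that E16.5-4n and P5-4n stood above all other libraries.

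The remaining alpha genes ran the other way with age. Tuba4a, which unlike most alpha tubulins is made without a C-terminal tyrosine, was at 45.2 CPM in 2n against 36.0 in 4n at E16.5, 75.8 against 61.1 at P1 and 247 against 173 at P5. It was higher at each later age, and at each age 2n was above 4n without overlap of the intervals. From E16.5 to P5 it was higher by a ratio of 5.46 in 2n and 4.81 in 4n. Tuba8, a form known from striated muscle and testis, had 2 UMIs in 2n against 1 in 4n at E16.5, 39 against 57 at P1 and 393 against 252 at P5. These counts correspond to 0.14, 0.077, 2.37, 2.90, 21.9 and 13.7 CPM. Its log2 ratio of P1 over E16.5 rested on those 1 or 2 UMIs and was 4.12 (2.17 to 7.21) in 2n and 5.24 (2.71 to 10.57) in 4n. From P1 to P5 it was 3.21 (2.73 to 3.72) in 2n and 2.24 (1.82 to 2.68) in 4n. Between 4n and 2n the log2 ratio was 0.29 (-0.32 to 0.92) at P1, against -0.68 (-0.91 to -0.45) at P5.

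Among the beta genes, Tubb5, the main beta form of dividing cells, was at 1235 CPM in 2n against 2285 in 4n at E16.5, 335 against 475 at P1 and 586 against 835 at P5. It was the most abundant member by UMIs in all libraries except P5-2n, where Tuba1b stood above it, and in P5-4n the intervals of both genes overlapped. Unlike Tuba1b, Tubb5 in P5 CMs did not reach the level of E16.5-2n. Tubb4b, which is also broadly used and belongs to the axonemes of cilia, was at 154 CPM in 2n against 376 in 4n at E16.5, 62.0 against 99.4 at P1 and 122 against 256 at P5. Tubb6 was at 41.6 CPM in 2n against 109 in 4n at E16.5, 12.3 against 29.4 at P1 and 22.7 against 77.1 at P5. For both genes P5-4n lay above E16.5-2n, and 2n and 4n did not overlap at any age.

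The neighbours Tubb2a and Tubb2b differed in their course after birth. Tubb2a was at 99.4 CPM in 2n against 106 in 4n at E16.5, 33.7 against 36.4 at P1 and 88.3 against 71.6 at P5. Tubb2b, like Tubb2a a form rich in the brain, was at 180 CPM in 2n against 186 in 4n at E16.5, 59.6 against 55.4 at P1 and 86.9 against 73.2 at P5. Both were close between 2n and 4n at E16.5 and P1. At P5 their intervals overlapped in each ploidy, whereas at E16.5 Tubb2b had been the higher of the pair by counts. Reads of Tubb2a that also match Tubb2b are not counted, and these intervals do not cover that loss. From P1 to P5 in 2n, the log2 ratio was 1.39 (1.25 to 1.53) for Tubb2a and 0.54 (0.43 to 0.66) for Tubb2b.

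The composition of tubulin transcripts shifted with age and ploidy. Tubb5 made up 39.8% (39.3 to 40.3) of the UMIs of the 10 genes in 2n against 43.5% in 4n at E16.5, 33.1% against 36.0% at P1 and 26.7% (26.3 to 27.1) against 32.5% at P5. Its share was lower at each later age and higher in 4n at each age. Tuba1b took 26.3% to 33.5% of the UMIs in every library and was thus steadier than Tubb5. Tuba4a took 1.46% (1.35 to 1.57) in 2n against 0.686% in 4n at E16.5, 7.49% against 4.64% at P1 and 11.3% (10.9 to 11.6) against 6.75% at P5. Within the alpha family alone its share went from 3.25% in E16.5-2n to 19.2% in P5-2n, close to the 19.8% of Tuba1a there. Tuba8 stayed at or below 1.00% of the UMIs in every library.

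Tubb4b took 4.98% of the UMIs in E16.5-2n against 7.15% in E16.5-4n, 6.13% against 7.54% at P1 and 5.57% against 9.96% at P5. Tubb6 took 1.34% against 2.07% at E16.5, 1.22% against 2.23% at P1 and 1.03% against 3.0% at P5. The shares of both genes were therefore larger in 4n at each age, with intervals that did not overlap. Tuba1a took 15.7% in E16.5-2n and 7.10% to 11.6% elsewhere, with a smaller share in 4n at E16.5 and P5. Tubb2b took 2.85% to 5.89%, with a smaller share in 4n at each age. The alpha family held 44.9% of the UMIs in 2n against 41.8% in 4n at E16.5, 50.3% against 47.2% at P1 and 58.7% against 48.9% at P5. The ratio of alpha to beta UMIs was accordingly lowest in E16.5-4n, at 0.717 (0.706 to 0.728), and highest in P5-2n, at 1.42 (1.39 to 1.45). Because reads shared among the Tuba1 genes are not counted, and some shared with pseudogenes may not be, this ratio is not the ratio of alpha to beta transcripts in the cell. No window of Tuba4a or Tuba8 was shared, and their part of the alpha UMIs differed between libraries. The loss of reads may therefore differ between libraries too, so differences of this ratio between libraries are also uncertain.

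**Figure D2:**
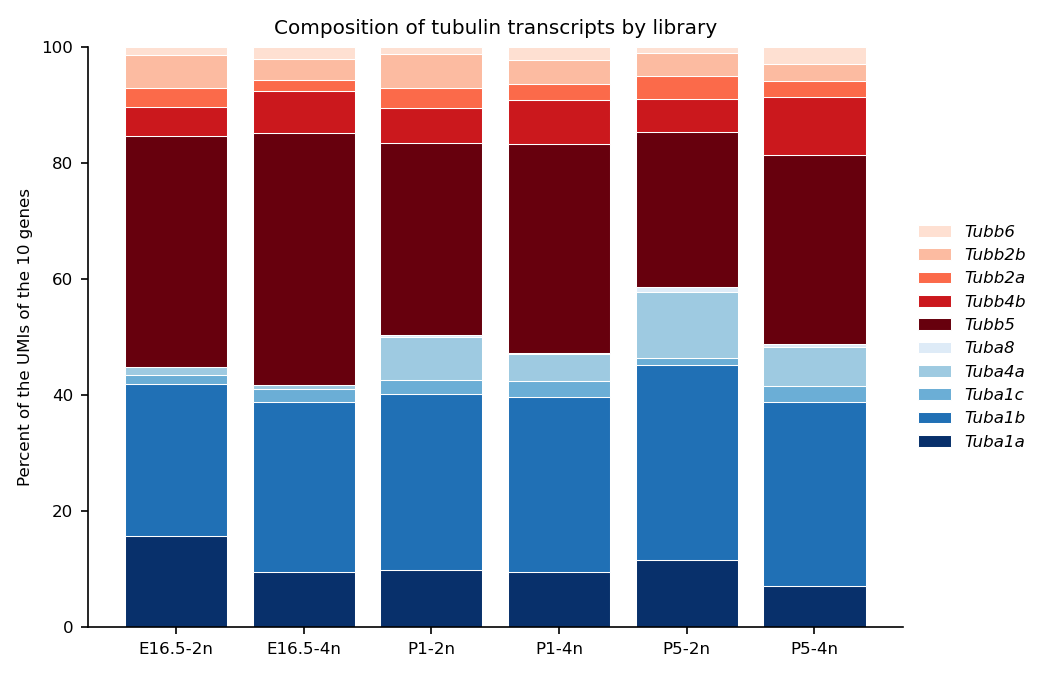
Percent of the UMIs of the 10 genes (vertical axis) held by each gene in the CMs of the 6 libraries; alpha genes are in blues and beta genes in reds. The Tubb5 block narrows from 39.8% in E16.5-2n to 26.7% in P5-2n, while the Tuba4a block widens from 1.46% to 11.3%.

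The comparison of 4n with 2n CMs at each age asks how tubulin transcripts differ with DNA content. The summed tubulin was higher in 4n at each age, by a log2 ratio of 0.76 (0.74 to 0.78) before birth, 0.38 (0.35 to 0.41) at P1 and 0.23 (0.21 to 0.25) at P5. The beta family had 0.84, 0.47 and 0.54 in this order of ages and the alpha family 0.66, 0.29 and -0.04. At P5 the difference of the sums thus lay in the beta family, but each family held members on both sides of 0. Among the alpha genes Tuba1c was at 1.36 and Tuba4a at -0.51, and among the beta genes Tubb6 was at 1.77 and Tubb2a at -0.30. A gene was counted as higher or lower when its CPM ratio was at least 2 or at most 0.5 and both libraries together held at least 100 UMIs. At E16.5, 3 of the 9 members with enough UMIs were higher (Tuba1c, Tubb4b and Tubb6), against 4.64% of all genes, and 0 were lower, against 0.0208% of all genes. At P1 only Tubb6 was higher among 9 members, against 5.23% of all genes, and 0 were lower, against 0%. At P5, 3 of 10 members were higher, again Tuba1c, Tubb4b and Tubb6, against 1.87% of all genes, and 0 were lower, against 0.406%. The median log2 ratio of the members counted was 0.89 (E16.5), 0.38 (P1) and -0.05 (P5), beside 0.03, 0.05 and 0.02 over all genes.

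Tubb6 had the largest ratios at P1 and P5, with log2 ratios of 4n over 2n of 1.39 (1.25 to 1.53) at E16.5, 1.25 (1.02 to 1.49) at P1 and 1.77 (1.61 to 1.93) at P5. Tuba1c had 1.38 (1.25 to 1.52), 0.52 (0.34 to 0.70) and 1.36 (1.21 to 1.51), and Tubb4b had 1.28 (1.21 to 1.36), 0.68 (0.57 to 0.79) and 1.07 (0.99 to 1.14), in the same order of ages. The abundant Tubb5 had 0.89, 0.50 and 0.51, and Tuba1b 0.92, 0.38 and 0.15. These 5 genes were thus above 0 at each age, and for Tuba1b the ratio was smallest at P5. Tuba4a was below 0 at each age, at -0.33 (-0.50 to -0.15), -0.31 (-0.43 to -0.19) and -0.51 (-0.58 to -0.45). At P5 Tuba1a, Tuba8, Tubb2a and Tubb2b were also lower in 4n, with log2 ratios of -0.49, -0.68, -0.30 and -0.25 and no interval that held 0. At E16.5 the ratios of Tuba1a, Tubb2a and Tubb2b were at most 0.10 from 0 and took the opposite sign when the libraries were scaled by the median of ratios.

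Transcripts of other cell types moved with the 4n gate. The summed CPM of 22 markers of fibroblasts, endothelial cells, immune cells and mural cells was 175 in E16.5-2n against 915 in E16.5-4n, 179 against 1111 at P1 and 341 against 443 at P5, and 1 of the 22, Ptprc, was at 0 in a library (E16.5-2n). Without the CMs that held 2 or more UMIs of these markers, which were 3.68% to 39.4% of the CMs of a library, these sums were 40.6 to 82.1 CPM in every library. The UMIs were counted here without thinning, so deeper CMs were left out more readily. In P1-4n, with a median of 3187 UMIs, 39.4% were left out, and in P1-2n, with 1831, 3.75%. In E16.5-4n, with a median of 2185, 25.9% were left out, and in E16.5-2n, with 2240, 3.68%. Of CMs thinned to 1000 UMIs, 0.614% in 2n against 6.53% in 4n held at least 5 of these UMIs at E16.5. At P1 it was 0.843% against 7.39%, and at P5 1.89% against 2.90%. Without the CMs left out, the summed tubulin ratios of 4n over 2n were 0.93 (E16.5), 0.44 (P1) and 0.26 (P5). Over all CMs they were 0.76, 0.38 and 0.23. The part of other cell types in them was not tested. The same step left the mitosis markers described further on at 5166 in place of 4227 CPM in E16.5-4n and at 837 in place of 663 in P1-4n, while in 2n they went from 959 to 940 and from 181 to 174 CPM. At E16.5 Tuba1b was then at 1.13 and Tubb5 at 1.08. Tuba1c, Tubb4b and Tubb6 were at 1.64, 1.52 and 1.61 at E16.5 and at 1.44, 1.10 and 1.93 at P5. Tuba1a at P1 went from 0.34 (0.25 to 0.43) to -0.04 (-0.15 to 0.08) when the cells were left out. When each CM was thinned to 1000 UMIs, P1-4n CMs with at least 5 UMIs of these markers held 205 CPM of Tuba1a, against 102 CPM in those with none. Transcripts of red blood cells, 6 genes in all, summed to 5125 CPM in E16.5-2n against 10330 in E16.5-4n and to 1649 to 2906 CPM elsewhere, and their part in the ratios was not tested.

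**Figure D3:**
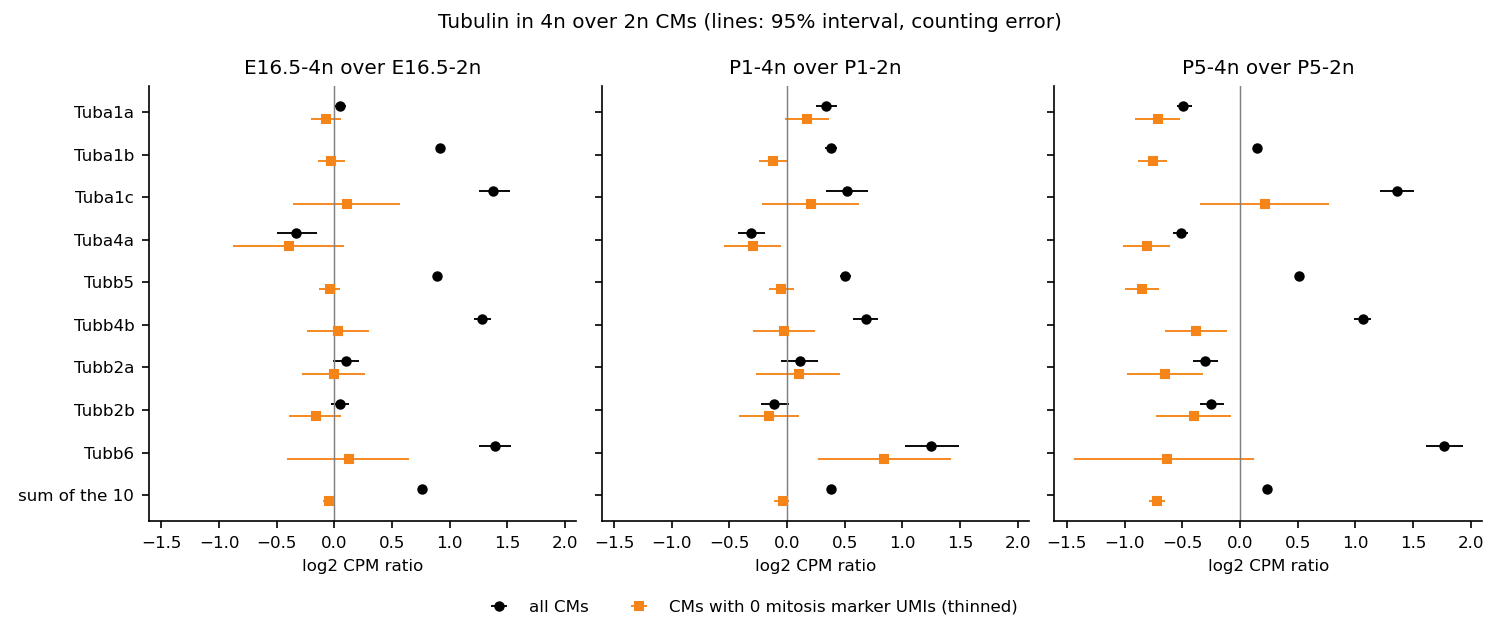
Log2 CPM ratio of 4n over 2n CMs (horizontal axes) at E16.5, P1 and P5 for 9 members and the sum of the 10; Tuba8 is not drawn. Black circles are all CMs, orange squares are thinned CMs with 0 mitosis marker UMIs, and lines are 95% intervals: the black circle of the sum lies at 0.76, 0.38 and 0.23 and the orange square at -0.05, -0.04 and -0.72.

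Between E16.5 and P1 tubulin was lower by a ratio of 3.07 in 2n and 3.99 in 4n, that is by log2 ratios of P1 over E16.5 of -1.62 (-1.64 to -1.59) and -2.0 (-2.02 to -1.97). In 2n, 7 of 9 members were lower by the 2-fold rule, against 12.1% of all genes, and 0 were higher, against 1.98%. In 4n, 8 of 9 members were lower, against 11.6% of all genes, and 0 were higher, against 2.88%. The median log2 ratio of the members counted was -1.56 in 2n and -1.89 in 4n, beside -0.34 and -0.30 over all genes. The lowest ratios were those of Tuba1a in 2n, at -2.29 (-2.36 to -2.21), and of Tubb5 in 4n, at -2.27 (-2.30 to -2.23). Tuba4a was the only one of the 9 on the other side, at 0.75 (0.61 to 0.88) in 2n and 0.76 (0.61 to 0.92) in 4n. The general shift of genes between these ages depends on the scaling: by the median of ratios the summed tubulin was at -1.27 in 2n and -1.67 in 4n, and Tuba4a at 1.09 in both.

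From P1 to P5 the summed tubulin was higher again, by log2 ratios of 1.12 (1.09 to 1.14) in 2n and 0.96 (0.94 to 0.98) in 4n. In 2n, 5 of 10 members were higher by the 2-fold rule (Tuba1a, Tuba1b, Tuba4a, Tuba8 and Tubb2a), against 3.02% of all genes, and 0 were lower, against 1.98%. In 4n, 6 of 10 were higher (Tuba1b, Tuba1c, Tuba4a, Tuba8, Tubb4b and Tubb6), against 2.40% of all genes, and 0 were lower, against 5.85%. Tuba8 reached the minimum of 100 UMIs here through its P5 counts. The members past 2-fold in both ploidies were thus Tuba1b, Tuba4a and Tuba8. In 4n but not in 2n, Tuba1c, Tubb4b and Tubb6 passed the fold, with log2 ratios of 1.01, 1.36 and 1.39 in 4n and 0.17, 0.98 and 0.88 in 2n, while Tuba1a and Tubb2a passed it in 2n alone, at 1.36 and 1.39 against 0.53 and 0.98. Which members pass the fold in 1 ploidy depended on the processing for those near it. Tubb2a in 4n was at 1.12 to 1.29 by the median of ratios, as a mean over cells, after thinning or without CMs holding UMIs of other cell types, and Tubb4b in 2n was at 1.08 to 1.10 under the first 3 of these. Tubb6 in 2n also passed it after thinning, with means of 0.0223 UMIs per CM in P5-2n against 0.0105 in P1-2n. Tubb5 in 4n passed it by the median of ratios. Without CMs holding UMIs of other cell types, Tuba1b (0.97) and Tuba1c (0.90) in 4n were below the fold. In thinned 4n CMs with 0 mitosis marker UMIs, a set described further on, Tuba1c was at 0.15 (-0.41 to 0.68), Tubb4b at 0.81 (0.49 to 1.12) and Tubb6 at -0.47 (-1.28 to 0.28). In the 2n CMs of that set the same genes were at 0.13 (-0.31 to 0.57), 1.15 (0.93 to 1.37) and 1.00 (0.44 to 1.57). Whether these ratios differ between 2n and 4n was not tested. All 10 members had a log2 ratio above 0 in both ploidies, beside medians over all genes of -0.09 and -0.16, but the interval of Tuba1c in 2n (-0.02 to 0.36) held 0. Compared with E16.5, the sum at P5 was still lower, by a log2 ratio of -0.50 (-0.52 to -0.48) in 2n and -1.03 (-1.05 to -1.02) in 4n.

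To see how tubulin goes with mitosis markers within a library, each CM was thinned to 1000 UMIs. It was then classed by UMIs of 24 such markers, among them Ccnb1, Plk1, Ube2c and Top2a, a list without tubulin genes. CMs with at least 3 such UMIs made up 12.0% of thinned CMs in 2n against 46.8% in 4n at E16.5, 1.57% against 6.47% at P1 and 3.85% against 29.3% at P5. Their summed tubulin was 5782, 8082, 4058, 5606, 4858 and 5280 CPM from E16.5-2n to P5-4n, against 2434, 2358, 868, 844, 1924 and 1172 CPM in the CMs with none. The log2 ratio between the classes was lowest in E16.5-2n, at 1.25 (1.19 to 1.30), and highest in P1-4n, at 2.73 (2.65 to 2.82), and it was above 0 in all 6 libraries. The classes are ranges of a count and not cell types: 43 to 243 CMs per library held exactly 3 of the UMIs and 79 to 337 held 2. CMs with at least 3 were not shown to be in mitosis, and they include CMs sorted as 2n. The paper states that expression does not readily part G2 from M. Markers of other cell types summed to 212 to 692 CPM in the CMs with mitosis marker UMIs and to 105 to 1266 CPM in those with none, higher in the former in each 2n library and higher in the latter in each 4n library, and their part in the ratios was not tested.

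The members fell into groups by this measure. Tubb6 had log2 ratios of 2.21 (E16.5-2n) to 4.19 (P5-4n) between CMs with and without mitosis marker UMIs. Tubb4b had 1.46 (P5-2n) to 3.38 (P1-4n), Tubb5 1.53 to 3.20, Tuba1b 1.47 to 2.94 and Tuba1c 1.27 to 2.70, and the intervals of these 5 genes were above 0 in all 6 libraries. Tuba1a was also above 0 in each, with values of 0.20 (E16.5-4n) to 1.59 (P1-2n). These were below those of the 5 genes in every library except P1-2n. There Tuba1c was also at 1.59 (0.11 to 2.76), with only 6 UMIs in the CMs with mitosis marker UMIs. Tubb2b ranged from 0.39 to 1.03 with an interval above 0 in 4 libraries. Tuba4a (0.07 to 0.52) and Tubb2a (-0.92 to 0.87) had an interval above 0 only in P5-4n. For Tuba8 only P5-4n gave more than 3 UMIs in both classes, with a log2 ratio of -0.54 (-1.76 to 0.57).

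**Figure D4:**
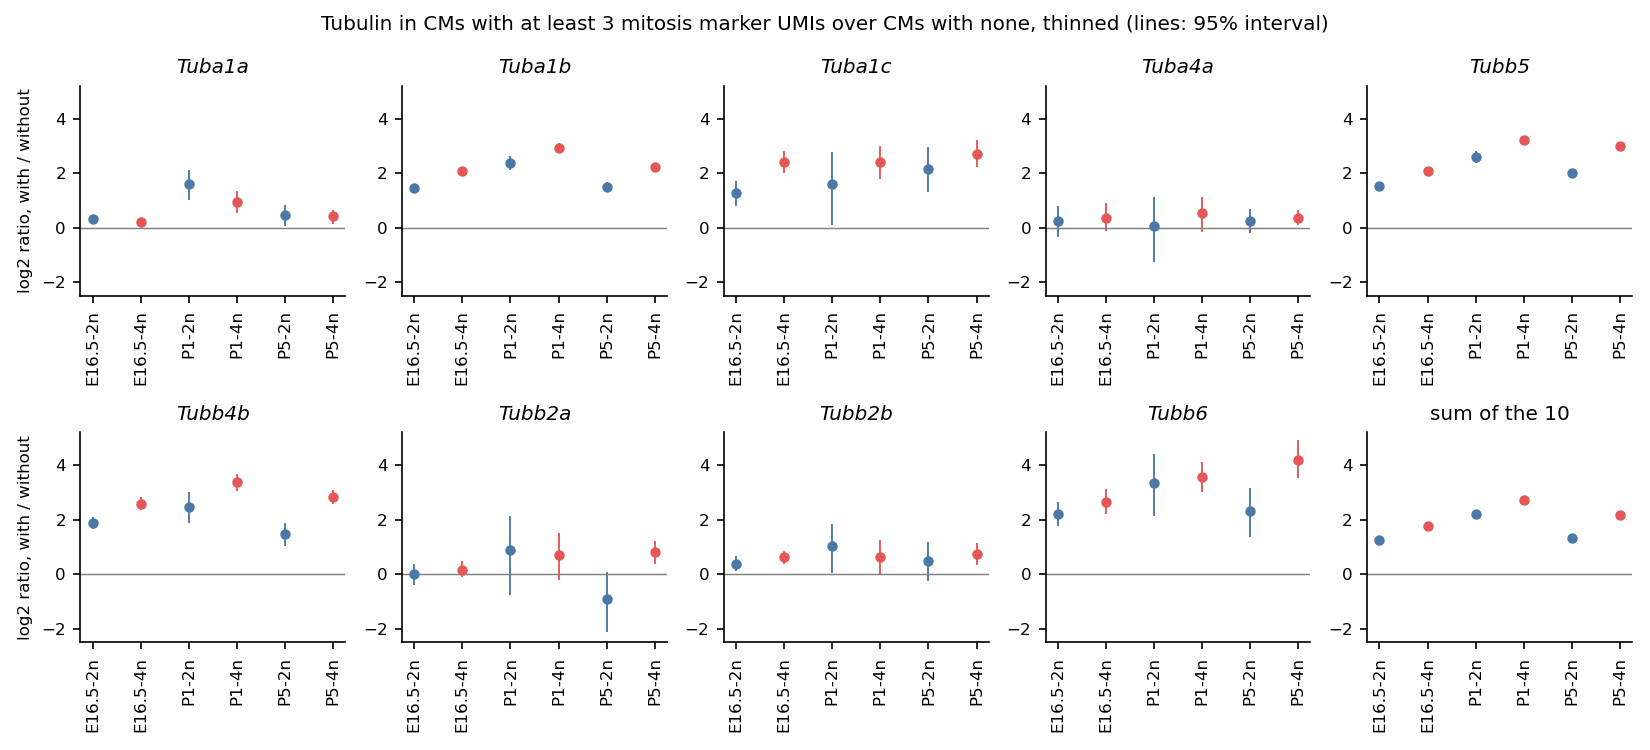
Log2 ratio of CPM between thinned CMs with at least 3 mitosis marker UMIs and those with none (vertical axes), by library, for 9 members and the sum of the 10; blue points are 2n, red points 4n and lines are 95% intervals. Tubb5, Tubb4b, Tubb6, Tuba1b and Tuba1c lie above 1 in every library, whereas Tuba4a stays between 0.07 and 0.52.

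The composition of tubulin accordingly differed between the classes of one library. In P5-4n CMs with mitosis marker UMIs, Tubb5 took 37.6% and Tuba4a 3.42% of tubulin UMIs, against 21.4% and 12.0% in those with none. In E16.5-4n the same shares were 45.3% and 0.517%, against 36.8% and 1.37%. Tuba1a took 3.95% against 13.4% in P5-4n and 6.38% against 19.1% in E16.5-4n. Tubb4b went the same way as Tubb5, with 11.5% against 7.34% in P5-4n.

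When only thinned CMs with 0 mitosis marker UMIs were compared, 4n and 2n were close at E16.5 and P1 and apart at P5. These CMs were 31.9% of the thinned CMs in E16.5-4n and 50.3% in P5-4n, and 66.8% to 89.6% in the other libraries. The log2 ratio of summed tubulin, 4n over 2n, was -0.05 (-0.10 to 0.01) at E16.5 and -0.04 (-0.11 to 0.02) at P1, whereas at P5 it was -0.72 (-0.79 to -0.65). At E16.5 each of the 9 members with a value had an interval that held 0, among them Tubb6 at 0.13 (-0.41 to 0.65) and Tubb4b at 0.03 (-0.24 to 0.30). At P1 Tubb6 stayed above 0, at 0.84 (0.27 to 1.42), and Tuba4a below it, at -0.30 (-0.55 to -0.05). At P5 Tuba1a, Tuba1b, Tuba4a, Tuba8, Tubb5, Tubb4b, Tubb2a and Tubb2b were lower in 4n with intervals below 0, from -0.38 for Tubb4b to -0.85 for Tubb5. Markers of other cell types in these CMs were at 105 against 1266 CPM at E16.5, 152 against 1094 at P1 and 290 against 476 at P5, in 2n and 4n, and their part in these ratios was not tested. The set was not chosen by markers of S phase, a list of 16 genes such as Mcm2 and Pcna. Over all CMs the median log2 ratio of those counted, 4n over 2n, was -0.25 at E16.5, 0.08 at P1 and -0.89 at P5. The part of S phase cells in these ratios was not tested either.

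In the same CMs without mitosis marker UMIs the course over age was kept for the sum between E16.5 and P1, with log2 ratios of -1.49 (-1.54 to -1.44) in 2n and -1.48 (-1.55 to -1.41) in 4n. From P1 to P5 the ratio was 1.15 (1.10 to 1.20) in 2n and 0.47 (0.39 to 0.55) in 4n. Tubb5 in 4n was then at -0.17 (-0.33 to -0.01), against 0.81 over all 4n CMs. Tuba4a was at 1.94 (1.77 to 2.12) in 2n and 1.43 (1.16 to 1.70) in 4n.

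Over single CMs thinned to 1000 UMIs, counting alone gives a variance equal to the mean. For the summed tubulin the variance over the mean was 1.97 in 2n against 3.08 in 4n at E16.5, 1.5 against 2.55 at P1 and 1.5 against 2.87 at P5. It was larger in 4n than in 2n at each age, but so was the mean. At E16.5 the mean was 2.999 UMIs per thinned CM in 2n against 5.208 in 4n. The means were 0.959 against 1.21 at P1 and 2.143 against 2.533 at P5. For an equal spread between cells relative to the mean, the variance over the mean rises with the mean. Whether that spread differs between 2n and 4n was not tested. Tubb5 had the largest variance over mean of the members in all 6 libraries, from 1.29 in P1-2n to 2.22 in E16.5-4n, and up to 16 UMIs in a thinned CM. Tuba4a stayed between 1.01 and 1.08, and Tuba8 near 1. These genes were rarer: in P5-4n the means of Tubb5, Tuba4a and Tuba8 were 0.8227, 0.1522 and 0.01204 UMIs per thinned CM. The order of the genes by this measure is therefore not an order of their spread between cells. A value near 1 for a rare gene does not show an even level.

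The genes whose pattern over the 6 libraries came nearest were sought among 6794 genes with at least 100 UMIs in each library, by the root mean square (RMS) difference of centred log2 CPM. With 6 points that share depth and sorting, this is a description. Nearest to Tubb6 were Spc24 (0.106), Cenpw (0.159) and Cenpp (0.170), which encode proteins of the kinetochore, where spindle microtubules attach. Nearest to Tubb4b were Rangap1 (0.134), Mad2l1 (0.153) and Cenpp (0.194), and to Tuba1c Ckap5 (0.105), Nde1 (0.118) and Ube2s (0.193). Ckap5 encodes a protein that speeds the growth of microtubules. Nearest to Tubb5 were Cks1b (0.130), Lmnb1 (0.138) and Tyms (0.169).

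Other members had other neighbours. Those of Tuba1b were Rrm1 (0.148), Tk1 (0.199) and Rfc5 (0.221), and those of Tuba1a were Fignl1 (0.155), Atad2 (0.172) and Prim1 (0.198), of which Rrm1, Tk1, Rfc5 and Prim1 act in making nucleotides or DNA. Tubb2a came nearest to Apitd1 (0.073), with Rfc4 (0.141) also near, and Tubb2b to Egln3 (0.093), Pfkl (0.107) and Emp2 (0.107). Tuba4a came nearest to Ckmt2 (0.269), the sarcomeric mitochondrial creatine kinase, to Lynx1 (0.293) and to Mhrt (0.313). Its nearest tubulin was Tubb2a, with an RMS difference of 1.21, whereas Tubb4b and Tuba1c were 0.259 apart. For the sum of the 10 the nearest genes were Rfc5 (0.140), Tk1 (0.166) and Sae1 (0.168). Tuba8 had too few UMIs for this comparison.

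Genes of other tubulins and of the proteins that fold, modify or bind tubulin were described by lists. Of 10 other tubulin genes, which include the platelet form Tubb1 and the neuronal form Tubb3, 2 were at 0 in every library and only 2 reached 100 UMIs in any comparison. Tubg1, the gamma tubulin that nucleates microtubules, was at 44.0, 53.0, 15, 15.4, 25.3 and 25.3 CPM from E16.5-2n to P5-4n, with log2 ratios of P1 over E16.5 of -1.55 in 2n and -1.79 in 4n. Tubd1, the delta tubulin of centrioles, was at 8.62, 14.1, 5.53, 6.31, 4.13 and 8.32 CPM, with 1.01 for 4n over 2n at P5 and -1.16 for P1 over E16.5 in 4n. Tubg1 thus differed with age more than with ploidy.

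The folding list held 21 genes, of which 20 were found, for subunits of prefoldin, of the chaperonin TRiC and for the tubulin cofactors, which take newly made tubulin in turn, with Arl2. None of the 19 or 20 with enough UMIs passed 2-fold in any of the 7 comparisons. Summed over the 7 TRiC subunits found, the level was 1858, 1698, 1119, 1020, 913 and 966 CPM from E16.5-2n to P5-4n, so that it was lower at P1 than at E16.5 like tubulin but not higher at P5. The 6 prefoldin subunits summed to 1138 to 1368 CPM in every library and the 6 cofactor genes to 489 to 636. Pfdn5, the gene of the list with most UMIs over all libraries, was at 439, 424, 461, 473, 418 and 436 CPM. The median log2 ratio of the list from E16.5 to P1 was -0.42 in 2n and -0.51 in 4n, nearer to the -0.34 and -0.30 of all genes than to that of the members.

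Of 17 genes for enzymes that modify tubulin and their partners, 12 had enough UMIs in each comparison. Past 2-fold were 2 lower genes from E16.5 to P1 in each ploidy, a share near the 12.1% and 11.6% of all genes, and 0 in the other comparisons. Vash2, a carboxypeptidase that removes the C-terminal tyrosine of alpha tubulin, was at 44.8, 30.8, 13.7, 12.3, 9.21 and 7.45 CPM from E16.5-2n to P5-4n. Svbp, the partner that the vasohibins need, was the most abundant of the list, at 156, 141, 127, 132, 99.3 and 105 CPM. Thus the level of Vash2 was lower at each later age, while Svbp differed by less than 2-fold throughout.

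Of 23 genes for proteins that bind, grow or destabilise microtubules, 18 to 20 had enough UMIs. Among them 2 were higher in 4n at E16.5, against 4.64% of all genes, and 2 at P5, against 1.87%. In 2n and 4n, 2 and 3 were lower at P1 than at E16.5, shares near the 12.1% and 11.6% of all genes. In 4n, 1 was higher at P5 than at P1, against 2.40% of all genes. Stmn1 encodes stathmin, which sequesters tubulin dimers. It was at 691, 1180, 177, 261, 235 and 625 CPM from E16.5-2n to P5-4n, with log2 ratios of 4n over 2n of 0.77, 0.56 and 1.41, and it was lower at P1 than at E16.5 by -1.96 in 2n and -2.18 in 4n. Ckap5 was at 31.4, 79.0, 20.6, 26.9, 23.2 and 52.7 CPM, with log2 ratios of 4n over 2n of 1.33, 0.38 and 1.19. Map1b, a microtubule-associated protein, was at 28.9, 39.3, 11.7, 14.5, 10.9 and 12.5 CPM. All 3 genes were above 2n in 4n at each age and lower after birth than at E16.5 in both ploidies. They were named because they passed 2-fold in at least 2 comparisons, and the list did not share their size of ratio. Its median log2 ratio of 4n over 2n was 0.09, 0.05 and 0.10, beside 0.03, 0.05 and 0.02 over all genes. For P1 over E16.5 it was -0.19 in 2n and -0.38 in 4n, beside -0.34 and -0.30. The summed mitosis markers, for comparison, were at 959 CPM in 2n against 4227 in 4n at E16.5, 181 against 663 at P1 and 414 against 2261 at P5.

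**Figure D5:**
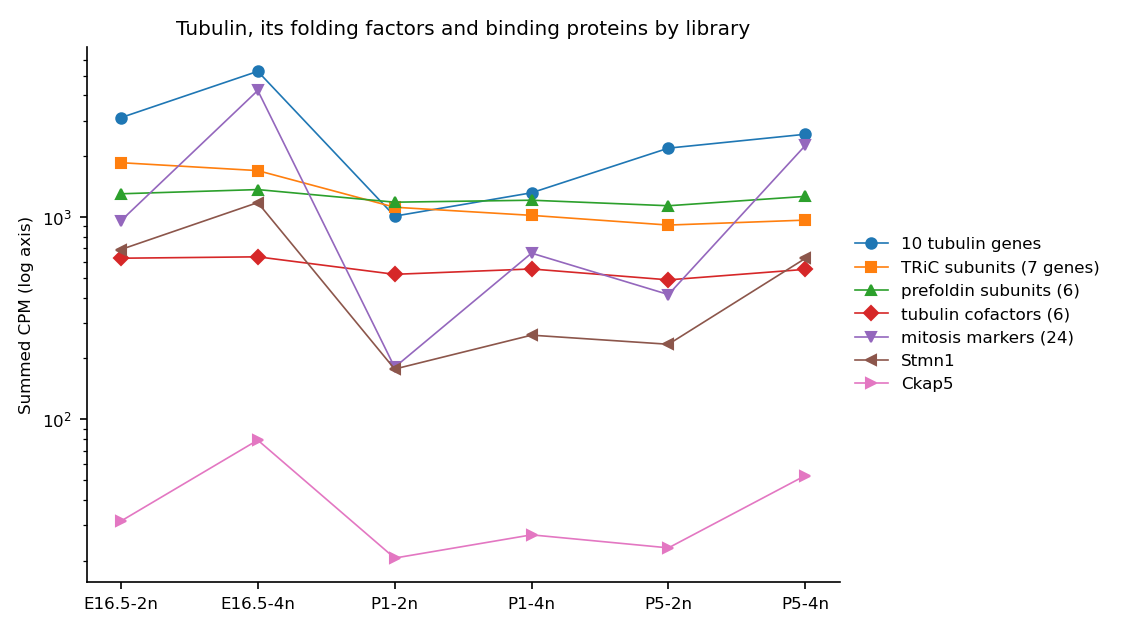
CPM by library (vertical axis, log scale) of the 10 tubulin genes, TRiC subunits, prefoldin subunits, tubulin cofactors and mitosis markers, each summed, and of Stmn1 and Ckap5. Tubulin goes from 5257 CPM in E16.5-4n to 1319 in P1-4n and 2568 in P5-4n, while the prefoldin line stays between 1138 and 1368.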

How the data were processed

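Sorted CMs were profiled with 10x Genomics Single Cell 3′ v2 chemistry. According to the study's methods and the submitters' processing notes, the authors ran Cell Ranger with its aligner STAR on mm10 (GRCm38). The deposited values are UMI counts for each gene in each called cell, and they have not been normalized. Seurat 2.3.0, which the notes also name, was not used here. The Cell Ranger version is not given in the sources used here. Depth ranged from 13213992 to 19714177 UMIs per library. Doublets were not called or removed. Samples were grouped by title.

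UMIs were summed over CMs (at least 1 UMI of each of 4 markers) with Python 3.11.15, numpy 2.4.6, scipy 1.17.1 and pandas 2.3.3. Ratios carry no pseudocount, and in counts over all genes a floor of 3 UMIs stood in for 0. Thinning drew 1000 UMIs per cell without replacement and left out 0 to 700 shallower CMs per library. With 1 library per condition there was no test, and genes were named by size: all 10 members, genes of the lists past 2-fold in at least 2 of 7 comparisons or most abundant in their list, and the 3 genes of most similar pattern, of which 1 is not reported here. The interval and fold functions were tested on simulated data. Members, lists and the ratios of P5 over E16.5 were chosen with earlier results of these data known, and the CMs with 0 mitosis marker UMIs were set apart after the data had been seen. Positions and 3′ windows came from GENCODE vM21 and promoters from RefSeq, both GRCm38. The authors' table of a comparison between ages (fold changes and p-values) and their list of background genes were not used. Alternatives were median-of-ratios scaling, means over cells, thinning, other CM filters, other minimums, folds and class limits, and leaving out CMs with UMIs of other cell types.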

Additional observations from a re-analysis of the deposited data

Results flagged for a closer look

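For Tuba1a the comparison of 4n with 2n CMs gave opposite directions at 2 ages. The log2 ratio was 0.34 (0.25 to 0.43) in P1 CMs but -0.49 (-0.55 to -0.42) in P5 CMs, a difference of 0.82 between the ages, which stands out because both intervals lie on their own side of 0. The difference was not tested, since each condition is 1 library. Across the other scalings and sets of cells it ranged from 0.51 to 0.88. The lowest value was that without CMs holding 2 or more UMIs of other cell types, where the P1 ratio was -0.04 and the P5 ratio -0.54, so that the directions were no longer opposite.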

How the results depend on the processing

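No paired analysis was made, because each condition is 1 library and pairing 2n with 4n over the ages would take ages as replicates. No library could be left out within a group. For the summed tubulin the 7 ratios (4n over 2n at E16.5, P1 and P5; P1 over E16.5 in 2n and 4n; P5 over P1 in 2n and 4n) kept their direction under every alternative chosen at the start. By the median of ratios they were 0.65, 0.25, 0.19, -1.27, -1.67, 1.22 and 1.16. As means over cells those that left their interval were 0.82 and 0.29 (4n over 2n at E16.5 and P5), -1.68, -2.11, 1.19 and 1.09. After thinning they were 0.80 and 0.34 (E16.5 and P1), -1.65, -2.11, 1.16 and 1.07. Without CMs holding UMIs of other cell types they were 0.93, 0.44, 0.26, -2.12 (P1 over E16.5, 4n) and 0.94 (P5 over P1, 4n). Without a CM filter or with 2 UMIs of each marker no ratio left its interval. In thinned CMs with 0 mitosis marker UMIs, a set chosen after seeing the data, 4n over 2n was -0.05 and -0.04 at E16.5 and P1, with intervals that held 0, and turned to -0.72 at P5, and the others were -1.49, -1.48, 1.15 and 0.47.

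Single genes also took the other sign there. Intervals lay below 0 for Tuba1b (-0.75), Tubb5 (-0.85) and Tubb4b (-0.38) at P5 and for Tubb5 from P1 to P5 in 4n (-0.17). They reached 0 for Tuba1b (-0.03 and -0.12) and Tubb5 (-0.04 and -0.05) at E16.5 and P1, Tubb4b at P1 (-0.03), Tubb6 at P5 (-0.63) and Tubb6 from P1 to P5 in 4n (-0.47). Tuba1a at P1 was at -0.04, with an interval that held 0, without CMs holding UMIs of other cell types.

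Shares over all genes are not given for the other settings, so the counts of members below are not set against a background. Of the counts past the fold, those that moved by more than 1.5 times are given first. A fold of 1.5 gave 5 higher at E16.5 and 2 at P1 and 1 lower at P5 (4n over 2n), 1 higher from E16.5 to P1 in each ploidy, and 8 higher from P1 to P5 in 2n. A minimum of 30 UMIs gave 1 higher from E16.5 to P1 in each ploidy, as did the median of ratios. Leaving out CMs with UMIs of other cell types gave 5 higher in 4n at E16.5. Smaller moves were from 7 lower in 2n from E16.5 to P1 to 8 (fold of 1.5) or 6 (median of ratios), from 5 higher in 2n from P1 to P5 to 6 (median of ratios), and from 6 higher in 4n from P1 to P5 to 8 (fold of 1.5, median of ratios) or 5 (without CMs holding UMIs of other cell types). The ratio of tubulin between CMs with and without mitosis marker UMIs, for 2n and then 4n at each age, was 1.07, 1.68, 1.98, 2.53, 1.11 and 2.06 with a limit of 2 UMIs, and 1.00, 1.60, 1.70, 1.85, 0.88 and 1.83 without thinning. With a limit of 5 it was 1.41, 1.88, 2.46 and 2.90 in the first 4 libraries and 2.32 in P5-4n. Without CMs holding UMIs of other cell types it was 1.86 at E16.5 (4n), 2.38 at P1 (2n), 3.04 at P1 (4n) and 2.29 at P5 (4n). Apart from the thinned CMs without mitosis marker UMIs, shares moved by at most 2.62 percentage points under any alternative. In those CMs some shares moved further. Tubb5 in P5-4n took 21.4% of tubulin UMIs in place of 32.5%, and Tuba1a in E16.5-4n took 19.1% in place of 9.56%. For these changes the cause was not tested. Intervals rest on UMI counts alone and are narrow for abundant genes, so a value outside its interval can still be close.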
